A study of Homo sapiens with 8 samples.

Results

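The difference in estradiol (E2) response between 2 siRNA treatments was described in T47D cells, an established estrogen receptor-positive line of luminal breast cancer. For each gene, the E2 minus vehicle change with control siRNA was subtracted from the same change with 17β-HSD1 siRNA, on the log2 scale. All 8 arrays of the study entered this contrast. Of 33297 probe sets, 19460 carried exactly 1 gene symbol, and the brightest probe set of each gene left 18417 genes.

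Every culture had been kept in steroid-deprived medium and transfected with 200 nM siRNA, so no group was free of transfection or deprivation. Either siRNA was followed by ethanol vehicle or by 1 nM E2, which made 4 groups of 2 arrays. Control siRNA was a scrambled sequence and 17β-HSD1 siRNA was a mixture of 3 siRNAs. Steroid or vehicle was given 48 h after transfection for 2 days, and the replicates came from 2 independent culture experiments, taken here as replicate numbers 1 and 2.

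17β-HSD1, encoded by HSD17B1, is the enzyme that reduces estrone, a weak estrogen, to estradiol. Estradiol binds the estrogen receptor, which then binds DNA directly or through other factors and raises the transcription of genes for proliferation, hormone signalling and secretion. The hormone also lowers many genes, among them brakes on growth factor signalling and on the cell cycle.

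HSD17B1 was checked first. Its log2 signal with control siRNA was 9.35 and 8.66 under vehicle against 9.12 and 8.56 under E2. The 17β-HSD1 siRNA cultures gave 8.41 and 8.36 under vehicle against 8.32 and 8.37 under E2, so all 4 arrays lay below the control siRNA arrays. The gap was narrow, from 8.41 to 8.56, and the control siRNA replicates lay further apart than that. 17β-HSD1 minus control siRNA was -0.62 in vehicle and -0.49 in E2. The E2 response of HSD17B1 itself was -0.16 with control siRNA and -0.04 with 17β-HSD1 siRNA, a difference of 0.13 ± 0.33 (SE).

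The arrays had medians of 7.25 to 7.37. An array differed from the rest, the first vehicle replicate of the 17β-HSD1 siRNA, with a mean correlation of 0.973 with the other arrays against 0.981 to 0.988 for the others. Medians of gene groups are given without this array too where that turned their sign or moved them by over 1.5 times. The 21 luminal epithelial markers had a median signal of 10.99, against 6.28 for 17 immune cell markers and 6.19 for 12 endothelial markers. ANKRD30A and SCGB2A2 of the luminal list were dim in this line, with mean signals of 5.11 and 5.28. In RNA from whole cultures, a different share of responding cells and a different level per cell cannot be told apart.

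Averaged over the siRNAs, E2 raised genes of DNA replication and mitosis and classical receptor targets. The 257 raised genes had a median response of 0.74 with control siRNA and 0.79 with 17β-HSD1 siRNA. The genes that E2 lowered had, in the median, responses nearer to 0 with 17β-HSD1 siRNA. The median of 45 such genes was -0.91 with control siRNA and -0.49 with 17β-HSD1 siRNA. No single gene carried a difference that passed the test over all genes. With limma and Benjamini-Hochberg adjustment, 0 of 18417 genes (0%) were called, and the smallest adjusted p was 0.99994. At an unadjusted limma p below 0.05 there were 109 genes (0.592%). Over the 21214 probe sets tested there were 140, where 1060.7 would be expected with no difference anywhere. With this shortfall, the p values and intervals may not hold their nominal levels. The median 95% interval of a difference reached 0.52 to either side on the log2 scale, so differences of that size lay within the error of 2 arrays a group.

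Genes that respond to E2 were picked by the response averaged over both siRNAs, whose estimate is independent of the difference only when the spread is equal in all groups. It was not equal here: over genes, the difference between replicates had an SD of 0.38 with 17β-HSD1 siRNA in vehicle, 0.20 in E2, and 0.27 and 0.25 with control siRNA in vehicle and E2. At a limma adjusted p below 0.05 the averaged response raised 257 genes (1.4%) and lowered 45 (0.244%). With control siRNA alone 13 genes were raised (0.0706%) and 3 lowered (0.0163%), the lowered genes being AKAP6, FSIP2 and NBEA. With 17β-HSD1 siRNA alone 52 were raised (0.282%) and 0 lowered (0%). At an unadjusted limma p below 0.05, the lowered genes numbered 519 with control siRNA and 204 with 17β-HSD1 siRNA. The order of these counts turned with 1 array: they were 824 and 432 without the first vehicle replicate of the 17β-HSD1 siRNA, and 824 and 2530 without the second. With the experiment as a block, which takes out shifts common to a replicate number, the calls were 121 with control siRNA, 105 with 17β-HSD1 siRNA and 467 for the averaged response, and the difference still had 0 calls.

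**Figure D1:**
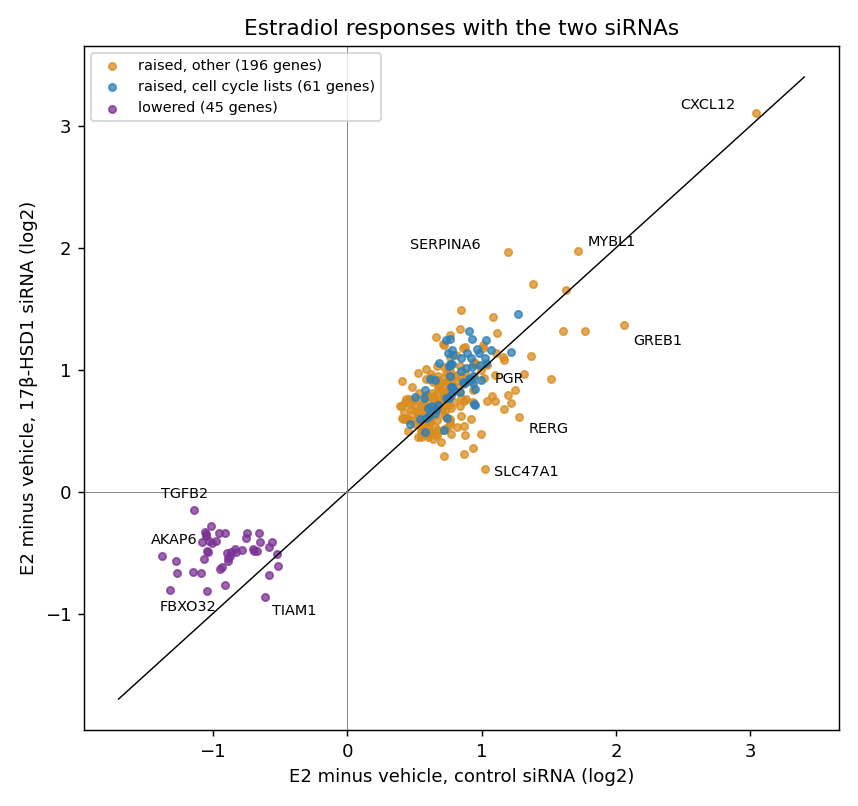
Estradiol response (E2 minus vehicle, log2) of the 302 genes called in the averaged response, with control siRNA on the x axis and 17β-HSD1 siRNA on the y axis. Each point is a gene, colours mark its class and the line marks equal responses. Of the 45 lowered genes 42 lie above the line, and the raised genes lie on both sides of it.

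Among the 45 lowered genes, 42 had a positive difference, which here means a response nearer to 0 with 17β-HSD1 siRNA. The median difference was 0.38, against 0.00 over all 18417 genes (0.03 without the first vehicle replicate of the 17β-HSD1 siRNA). In experiment 1 the median was 0.54 and in experiment 2 it was 0.23. The difference was positive in both experiments for 40 of the 45, where 17.7% of all genes had this pattern. It was negative in both for 1 gene, TIAM1, where 18.6% of all genes had that pattern. In vehicle these genes lay on both sides, 24 higher and 21 lower with 17β-HSD1 siRNA, with a median 17β-HSD1 minus control siRNA difference of 0.01 and single values from -0.50 to 0.89. In E2 the same median was 0.37, and 43 of 45 genes were higher with 17β-HSD1 siRNA, where 9068 of all 18417 genes were.

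TGFB2, a secreted ligand of the TGF-beta family that restrains epithelial growth, had the largest difference of the lowered genes. With control siRNA its signal was 9.47 and 9.17 under vehicle against 7.95 and 8.41 under E2. After 17β-HSD1 siRNA the arrays read 9.21 and 9.44 under vehicle against 9.15 and 9.19 under E2. The E2 arrays lay well below vehicle with control siRNA, and just below it with 17β-HSD1 siRNA. The response was -1.14 with control siRNA and -0.15 with 17β-HSD1 siRNA, a difference of 0.99 ± 0.26 (95% interval 0.42 to 1.57). Its limma adjusted p was 0.99994. The difference stayed between 0.76 and 1.22 when any array was left out. TGFB2, AKAP6, BTG1, TP53INP1, VTCN1 and NFYB were named for the most reduced responses with the same sign in both experiments. Their ranges, intervals and agreement between experiments are therefore no independent support.

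AKAP6, a scaffold that anchors protein kinase A, was among the 3 genes called as lowered with control siRNA. Its signal with control siRNA was 7.80 and 8.44 under vehicle against 6.57 and 6.91 under E2. Under 17β-HSD1 siRNA the values were 8.65 and 8.71 under vehicle against 8.21 and 8.09 under E2. All 4 arrays with 17β-HSD1 siRNA lay above all E2 arrays with control siRNA. The response was -1.38 with control siRNA and -0.53 with 17β-HSD1 siRNA, a difference of 0.85 ± 0.29 (95% interval 0.21 to 1.49). Experiments 1 and 2 gave 0.78 and 0.92, and the same sign in both was part of how the gene was picked.

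TP53INP1, a p53-induced gene of cell cycle arrest and autophagy, gave 9.91 and 9.55 under vehicle against 8.92 and 8.43 under E2 with control siRNA. The 17β-HSD1 siRNA cultures gave 9.46 and 9.50 under vehicle against 9.30 and 9.00 under E2. Vehicle and E2 arrays did not overlap with either siRNA, but the gap was narrower with 17β-HSD1 siRNA. The responses were -1.06 and -0.33, a difference of 0.73 ± 0.28. BTG1, an antiproliferative gene, had a response of -1.02 with control siRNA and -0.28 with 17β-HSD1 siRNA, a difference of 0.74 ± 0.28. Its E2 arrays with 17β-HSD1 siRNA were 12.08 and 11.51 against vehicle arrays of 11.98 and 12.17, so these groups overlapped.

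Several other lowered genes act on growth control or signalling. The difference was 0.67 ± 0.24 for KLHL24, a substrate adaptor of a ubiquitin ligase, and 0.61 ± 0.24 for CITED2, a transcriptional coregulator. CCNG2, a cyclin linked to cell cycle exit, had responses of -0.97 and -0.40. NFYB, a subunit of the factor that binds CCAAT boxes, had -1.05 and -0.35. VTCN1, an inhibitory ligand of T cells, had -1.27 and -0.56. For the growth factor receptor ERBB2 the responses were -0.88 and -0.56, a difference of 0.32 ± 0.22 whose 95% interval of -0.17 to 0.80 includes 0. TIAM1, an activator of the Rac GTPase, had the opposite sign, with responses of -0.61 and -0.86 and a difference of -0.25 ± 0.22.

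**Figure D2:**
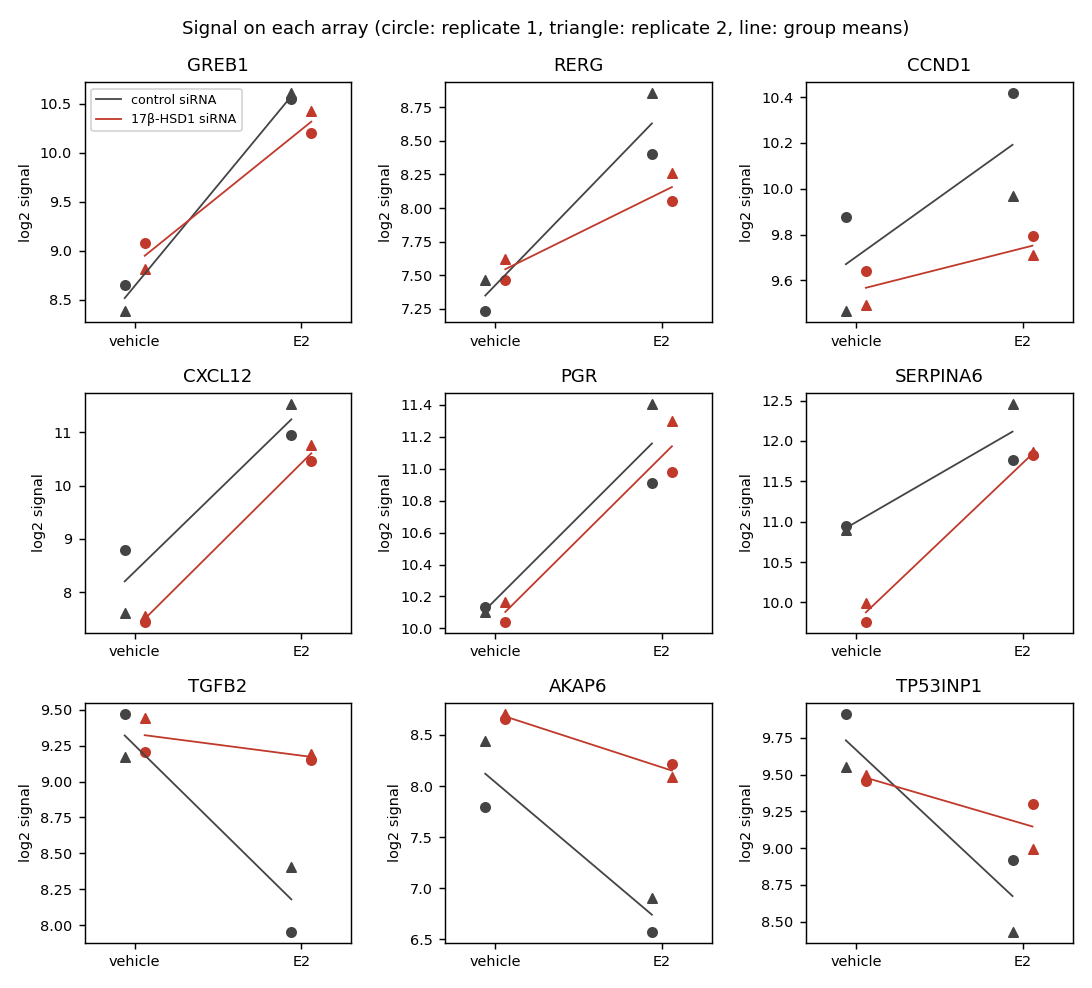
Log2 signal on each of the 8 arrays for 9 genes, vehicle at left and E2 at right of each panel, in grey for control siRNA and red for 17β-HSD1 siRNA. Circles are replicate 1, triangles replicate 2 and lines join group means; the lines of TGFB2, AKAP6 and TP53INP1 fall less steeply with 17β-HSD1 siRNA, and those of CXCL12 and PGR run nearly parallel.

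Signal level moved with the difference, and its part in these results was not tested. The lowered genes were bright: 31 of 45 were among the 4604 genes of highest mean signal. Those 4604 genes had a median difference of 0.10, with 77.4% positive, and the 4605 dimmest genes had -0.07. The bright genes had medians of 0.29 in experiment 1 and -0.08 in experiment 2, whereas the 31 bright lowered genes had 0.54 and 0.28. Without the first vehicle replicate of the 17β-HSD1 siRNA the bright genes had a median of 0.00, the dimmest genes one of 0.05 and the 31 bright lowered genes one of 0.33. For all 45 lowered genes the median was then 0.29, with 41 of 45 positive. Without replicate 2 of the same group it was 0.59, the highest of the 8 values found by leaving out 1 array. A positive sign held under all 8 for 38 of the 45 genes.

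**Figure D3:**
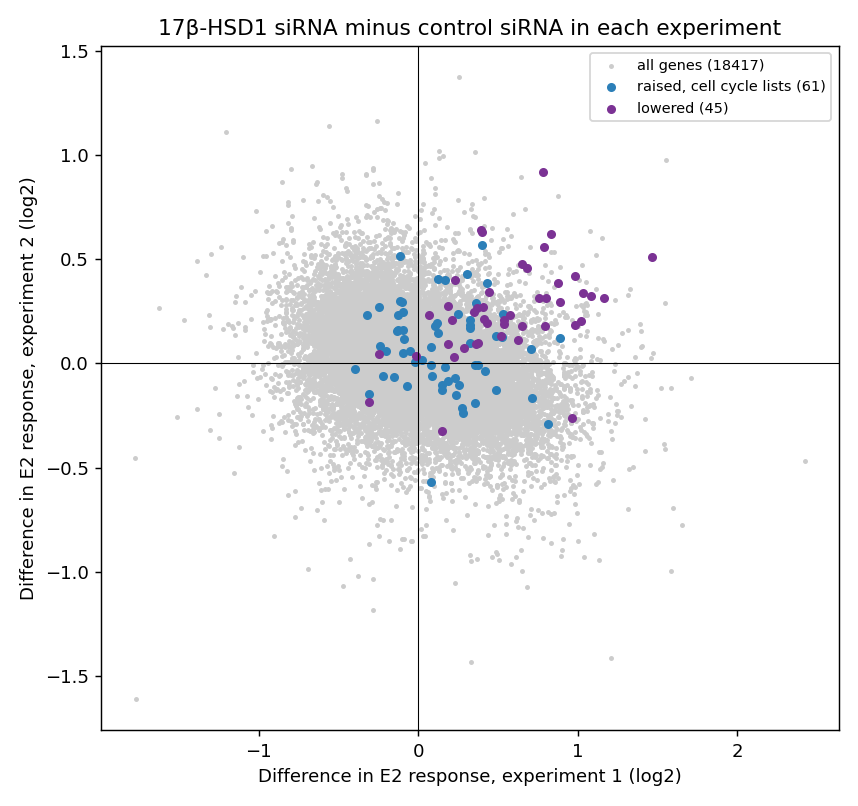
Difference in E2 response (17β-HSD1 minus control siRNA, log2) in experiment 1 on the x axis and experiment 2 on the y axis for 18417 genes in grey, the 61 raised genes of the cell cycle lists in blue and the 45 lowered genes in purple. The lowered genes lie mostly in the upper right, with 40 positive in both experiments, while the whole cloud slopes downward.

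Known estrogen targets were read from a list of 32 repressed genes, some of which were put on it with earlier results of these arrays known, so its direction is not independent evidence. Of the 32, 17 were called as lowered in the averaged response and 0 as raised, where 0.244% and 1.4% of all genes were. All 17 had a positive difference in both experiments. Their median response was -1.04 with control siRNA and -0.56 with 17β-HSD1 siRNA, and their median difference was 0.49. Leaving out 1 array moved this between 0.32 and 0.64. The other 15, which include TXNIP, SOX4 and CYP1A1, had a median difference of 0.00. Over all 32 the median difference was 0.28. Without the first vehicle replicate of the 17β-HSD1 siRNA these medians were -0.02 and 0.09.

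Classical induced targets went different ways. GREB1, an early target and coactivator of the receptor, had the most negative difference among raised list members. Its signal with control siRNA was 8.65 and 8.38 under vehicle against 10.54 and 10.61 under E2. After 17β-HSD1 siRNA the arrays read 9.08 and 8.82 under vehicle against 10.20 and 10.43 under E2. Vehicle was higher and E2 lower with 17β-HSD1 siRNA, and the siRNAs overlapped in neither treatment. E2 raised GREB1 4.16-fold with control siRNA and 2.58-fold with 17β-HSD1 siRNA, limma adjusted p = 0.0014 and 0.017. The log2 difference was -0.69 ± 0.23 (95% interval -1.20 to -0.18). Experiments 1 and 2 gave -0.77 and -0.61, and leaving out any array gave -0.83 to -0.56.

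RERG, a Ras-like growth inhibitor, gave 7.23 and 7.47 under vehicle against 8.41 and 8.86 under E2 with control siRNA. Under 17β-HSD1 siRNA the values were 7.47 and 7.62 under vehicle against 8.05 and 8.26 under E2. The E2 arrays lay above vehicle with both siRNAs, and the E2 arrays with 17β-HSD1 siRNA lay below those with control siRNA. The responses were 1.28 and 0.61, a difference of -0.67 ± 0.26. RAPGEFL1, related to exchange factors for Rap, had responses of 1.51 and 0.93 and a difference of -0.59 ± 0.23. SLC47A1, an efflux transporter of organic cations, had responses of 1.03 and 0.19 and a difference of -0.84 ± 0.26, the most negative among all raised genes. Its signals were 7.06 and 6.91 under vehicle against 8.21 and 7.81 under E2 with control siRNA, against 7.15 and 6.77 under vehicle against 7.16 and 7.15 under E2 with 17β-HSD1 siRNA.

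Other listed targets had wide intervals. CCND1, the cyclin D1 of the G1 phase, gave 9.88 and 9.47 under vehicle against 10.42 and 9.97 under E2 with control siRNA, and 9.64 and 9.49, then 9.79 and 9.71, with 17β-HSD1 siRNA. Its responses of 0.52 and 0.18 were not called, and the difference was -0.34 (95% interval -0.93 to 0.25). IGFBP4, which binds insulin-like growth factors, gave 9.24 and 9.56 under vehicle against 9.67 and 10.08 under E2 with control siRNA, and 9.77 and 9.65, then 9.87 and 9.82, with 17β-HSD1 siRNA. Neither response was called here either, and the difference was -0.34 (95% interval -0.89 to 0.21). TFF1, a secreted trefoil peptide, gave 7.64 and 7.56 under vehicle against 8.51 and 7.78 under E2 with control siRNA, and 7.94 and 7.26, then 7.72 and 7.77, with 17β-HSD1 siRNA. The difference for TFF1 was -1.09 in experiment 1 and 0.29 in experiment 2. Over all arrays it was -0.40, and -0.06 without the first vehicle replicate of the 17β-HSD1 siRNA; it was negative whichever array was left out.

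CXCL12, a chemokine, had the largest averaged response of all genes. Its signal was 8.79 and 7.62 under vehicle against 10.94 and 11.54 under E2 with control siRNA. The 17β-HSD1 siRNA cultures gave 7.45 and 7.55 under vehicle against 10.46 and 10.76 under E2. E2 raised it 8.22-fold with control siRNA and 8.61-fold with 17β-HSD1 siRNA. The difference was 0.07 ± 0.45, but the 95% interval ran from -0.91 to 1.05 and the experiments gave 0.85 and -0.72. PGR, the progesterone receptor, gave 10.13 and 10.10 under vehicle against 10.91 and 11.41 under E2 with control siRNA, and 10.04 and 10.16, then 10.98 and 11.30, with 17β-HSD1 siRNA. The arrays of the 2 siRNAs overlapped in E2, and both responses were 1.04, with a 95% interval of the difference from -0.58 to 0.57.

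MYBL1, a transcription factor of the MYB family, gave 8.15 and 7.73 under vehicle against 9.38 and 9.94 under E2 with control siRNA, and 7.18 and 7.17, then 8.89 and 9.41, with 17β-HSD1 siRNA. It lay lower with 17β-HSD1 siRNA in vehicle, and the responses were 1.72 and 1.97, a difference of 0.25 ± 0.32. MYC, the transcription factor of growth, gave 8.87 and 7.09 under vehicle against 9.49 and 8.77 under E2 with control siRNA, and 8.00 and 7.26, then 8.95 and 8.67, with 17β-HSD1 siRNA. The vehicle replicates of MYC were far apart, its responses of 1.15 and 1.18 were not called, and the interval of the difference ran from -1.40 to 1.46. NPY1R, a neuropeptide Y receptor, gave 6.41 and 5.55 under vehicle against 6.57 and 7.56 under E2 with control siRNA, and 5.44 and 5.73, then 6.68 and 7.35, with 17β-HSD1 siRNA. The difference of NPY1R was 1.08 in experiment 1 and -0.38 in experiment 2.

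SERPINA6, the corticosteroid-binding globulin, had the largest positive difference among raised genes. Its signal was 10.94 and 10.90 under vehicle against 11.77 and 12.46 under E2 with control siRNA. After 17β-HSD1 siRNA the arrays read 9.76 and 9.99 under vehicle against 11.82 and 11.86 under E2. The E2 arrays overlapped between siRNAs, and the vehicle arrays with 17β-HSD1 siRNA lay below those with control siRNA. The responses were 1.19 and 1.96, a difference of 0.77 ± 0.29 (95% interval 0.13 to 1.41). GRPR, the receptor of gastrin-releasing peptide, also had lower vehicle arrays with 17β-HSD1 siRNA, at 8.99 and 8.97 against 9.76 and 9.22 with control siRNA. Its E2 arrays with 17β-HSD1 siRNA, 10.51 and 10.44, lay at or above those with control siRNA, 10.24 and 10.44. Its responses were 0.85 and 1.49, a difference of 0.64 ± 0.26.

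The 257 raised genes together had a median difference of 0.06, with 166 positive and 91 negative, where 50.3% of all genes were positive. The median was 0.15 in experiment 1 and -0.01 in experiment 2. With 1 array left out it ran from -0.07 without replicate 1 of control siRNA with E2 to 0.18 without replicate 2 of that group. Of the 109 raised genes among the 4604 brightest, 74.3% were positive, against 77.4% of all 4604. The part of signal level was not tested. The induced list as a whole had a slightly negative median. Of 49 measured members, 22 were called as raised in the averaged response and 0 as lowered, where 1.4% and 0.244% of all genes were. The median response was 0.59 with control siRNA and 0.47 with 17β-HSD1 siRNA, and 34 of 49 differences were negative, where 49.7% of all genes were. The median difference was -0.13, with -0.16 in experiment 1 and -0.29 in experiment 2. Leaving out 1 array gave -0.24 to -0.08. For the 22 raised members the median was -0.10 and it changed sign when replicate 2 of control siRNA with E2 was left out, to 0.03; without the first vehicle replicate of the 17β-HSD1 siRNA it was -0.19. OLFM1, RBM24, ELOVL2 and KCNK5 belonged to the raised members with negative values, at -0.41, -0.46, -0.49 and -0.41, and HSPB8 to those with a positive value, at 0.32. PDZK1 was not named, because its probe set carried 2 symbols.

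A difference that misses its threshold does not show that a response was kept, so likeness was tested on its own. The test asked whether the response with 17β-HSD1 siRNA lay between 50% and 200% of that with control siRNA. In limma 0 genes (0%) passed after adjustment, and 23 (0.125%) had an unadjusted p below 0.05. Only genes that respond clearly with both siRNAs can reach a small p in this test, so it largely fixes that they were called responders. All 23 were raised genes, and 9 belonged to the cell cycle lists, as did 61 of the 257 raised genes. They include CXCL12, MYBL1, PGR and TRIP13, which disassembles the mitotic checkpoint complex. TRIP13 gave 9.17 and 8.96 under vehicle against 10.14 and 10.19 under E2 with control siRNA, and 8.62 and 8.39, then 9.71 and 9.57, with 17β-HSD1 siRNA. All arrays with 17β-HSD1 siRNA lay lower in the same treatment, and the responses were 1.11 and 1.14.

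Genes of the cell cycle made up 61 of the 257 raised genes. Of 45 measured genes of mitosis and cytokinesis 37 were raised, and of 44 genes of DNA replication and S phase 24 were raised. From either list 0 were lowered. Over all genes 1.4% were raised and 0.244% lowered. The median response of the 61 was 0.78 with control siRNA and 0.92 with 17β-HSD1 siRNA. Their median difference was 0.08, with 0.15 in experiment 1 and 0.08 in experiment 2. Leaving out replicate 1 of control siRNA with E2 turned this to -0.05, and leaving out replicate 2 gave 0.30. The difference was positive in 50 of 61, where 50.3% of all genes and 77.4% of the 4604 brightest genes were positive. In the median, the level of these genes differed more than their response. 17β-HSD1 minus control siRNA had a median of -0.57 in vehicle and -0.49 in E2. It was negative in 61 of 61 in each, where 8272 and 9349 of all 18417 genes were.

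CDK1, the kinase of entry into mitosis, had the largest positive difference of the mitotic list. Its signal was 8.41 and 8.64 under vehicle against 8.99 and 9.55 under E2 with control siRNA, and 7.15 and 7.74, then 8.62 and 8.76, with 17β-HSD1 siRNA. The vehicle arrays with 17β-HSD1 siRNA were the lowest of the 8. The responses were 0.74 and 1.24, a difference of 0.50 ± 0.32 (95% interval -0.20 to 1.20), and without the first vehicle replicate of the 17β-HSD1 siRNA the difference was 0.21. DTL, which targets replication proteins for degradation, had a difference of 0.48 ± 0.30. CCNA2, the S phase cyclin A2, had responses of 0.99 and 1.04, and BUB1, a checkpoint kinase, of 1.03 and 1.05. The difference was -0.07 for PLK1, a mitotic kinase, and -0.23 for CDC20, an activator of the anaphase-promoting complex.

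Promoters were compared because many of these genes move together. RefSeq windows of 250 bases before the start (GRCh38.p14) were at hand for 14239 of the 18417 genes, and motifs chosen after the values were seen were searched on both strands. TTTGAA, the letters of the cell cycle homology region, stood in 18 of 51 windows (35.3%) of raised cell cycle genes. It stood in 20.6% of windows of other raised genes, in 5.56% of those of lowered genes and in 10.6% of all windows. CCAAT stood in 70.6% of windows of raised cell cycle genes, 52.5% of other raised genes, 47.2% of lowered genes and 34.4% of all. The full palindrome of the estrogen response element, GGTCANNNTGACC, stood in 1 of 14239 windows and in 0 of the 247 windows of responding genes. A part of it, GGTCA, which every full match also holds, stood in 33.3% of windows of raised cell cycle genes, 35.6% of other raised genes, 9 of 36 of lowered genes and 30.8% of all. A match describes letters only.

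Stretches around the TTTGAA match are shown for genes of the cell cycle list whose responses lay close together and for CDK1, in lower case with TTTGAA or its reverse complement, and CCAAT or its reverse complement, in capitals. PLK1 lies at chr16:23678830-23678888 (+), BUB1B at chr15:40161016-40161068 (+), CCNB2 at chr15:59105087-59105145 (+), DLGAP5 at chr14:55191659-55191724 (-) and CDK1 at chr10:60778140-60778205 (+), all in GRCh38.p14 from RefSeq.
PLK1: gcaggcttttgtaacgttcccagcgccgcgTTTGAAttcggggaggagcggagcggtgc
BUB1B: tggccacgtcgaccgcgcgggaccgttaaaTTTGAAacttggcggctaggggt
CCNB2: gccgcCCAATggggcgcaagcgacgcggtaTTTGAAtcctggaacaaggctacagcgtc
DLGAP5: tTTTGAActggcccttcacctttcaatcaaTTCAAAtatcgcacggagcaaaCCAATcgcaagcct
CDK1: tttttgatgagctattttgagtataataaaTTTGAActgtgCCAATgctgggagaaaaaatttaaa
The responses of the first 4 differed by -0.07, -0.02, 0.10 and 0.01 between siRNAs, and that of CDK1 by 0.50. The interval of the CDK1 difference ran from -0.20 to 1.20 and includes 0. PRC1 and KIF4A also hold TTTGAA and differed by 0.02 and 0.04, but their stretches are not shown. Only genes with a TTTGAA match could be shown, so the stretches cannot tell whether these letters go with the difference.

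The remaining pathways had 0 to 3 genes per list called in the averaged response. Over all genes, 1.4% were called as raised and 0.244% as lowered. Of 33 TGF-beta and BMP genes, 3 were lowered, TGFB2, LTBP1 and BAMBI, and 0 were raised. LTBP1, which binds latent TGF-beta in the matrix, had responses of -1.14 and -0.66. Of 28 hypoxia and glycolysis genes 2 were lowered, EGLN3, an oxygen-sensing hydroxylase, with a difference of 0.56, and DDIT4, an inhibitor of mTOR signalling, with 0.36. Of 33 genes of growth factor receptor signalling 1 was lowered, ERBB2. The medians of the difference were 0.07, 0.08 and -0.04 for these lists, and 0.08, 0.02 and 0.06 without the first vehicle replicate of the 17β-HSD1 siRNA.

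Of 42 interferon genes 0 were called in the averaged response, where 1.4% of all genes were raised and 0.244% lowered. The interferon genes had values that single arrays decided. Their level was higher with 17β-HSD1 siRNA, by a median of 1.07 in vehicle and 1.05 in E2. It was higher in 42 of 42 genes in each, where 10145 and 9068 of all 18417 genes were. The median difference in E2 response was 0.00, yet it was 0.49 in experiment 1 and -0.57 in experiment 2. For 41 of 42 genes the sign differed between experiments. OAS3, an antiviral synthetase, gave 9.38 and 10.10 under vehicle against 9.69 and 11.04 under E2 with control siRNA, and 10.88 and 11.08, then 11.26 and 11.36, with 17β-HSD1 siRNA. Leaving out replicate 1 of control siRNA with E2 moved the median of the list to -0.51, and leaving out replicate 2 moved it to 0.48. Without the first vehicle replicate of the 17β-HSD1 siRNA it was -0.28.

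Cholesterol and fatty acid synthesis had a median difference of 0.19 over 27 genes. It was 0.09 without the first vehicle replicate of the 17β-HSD1 siRNA and 0.06 without replicate 1 of control siRNA with E2. The median was 0.44 in experiment 1, positive in 27 of 27 genes, and -0.06 in experiment 2, positive in 8. The list was bright, with a median signal of 9.68. The 4604 genes of highest mean signal had medians of 0.29 and -0.08, with 3902 and 1524 genes positive. HMGCS1, an early enzyme of the mevalonate pathway, gave 1.09 and -0.06 in the experiments. Ribosome biogenesis genes gave 0.29 and -0.29, luminal markers 0.30 and -0.02, and immune markers -0.37 and 0.10. The luminal markers were bright and the immune markers dim, and the 4605 dimmest genes gave -0.21 and 0.06. The part of signal level in the values of these lists was not tested. Without the first vehicle replicate of the 17β-HSD1 siRNA the immune markers had a median of 0.09 in place of -0.11, the luminal markers 0.05 in place of 0.18 and the ribosome biogenesis genes -0.08 in place of 0.00. None of the genes of these lists was called in the averaged response except DKC1, 1 of 34 ribosome biogenesis genes, which was raised.

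The lists of androgen-responsive genes, the unfolded protein response, steroid receptors and coregulators, estrogen and androgen metabolism, and apoptosis had medians between -0.04 and 0.02, and between -0.12 and 0.02 without the first vehicle replicate of the 17β-HSD1 siRNA. Called genes among them were STEAP4, lowered, and PGR, raised. In the metabolism list, CYP19A1, the aromatase that makes estrogens, had the smallest p, with a difference of 0.51 ± 0.23 at dim signals of 4.70 to 5.42. The basal, fibroblast and endothelial markers had medians of -0.06, -0.05 and -0.07, which turned to 0.03, 0.10 and 0.12 without that array.

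**Figure D4:**
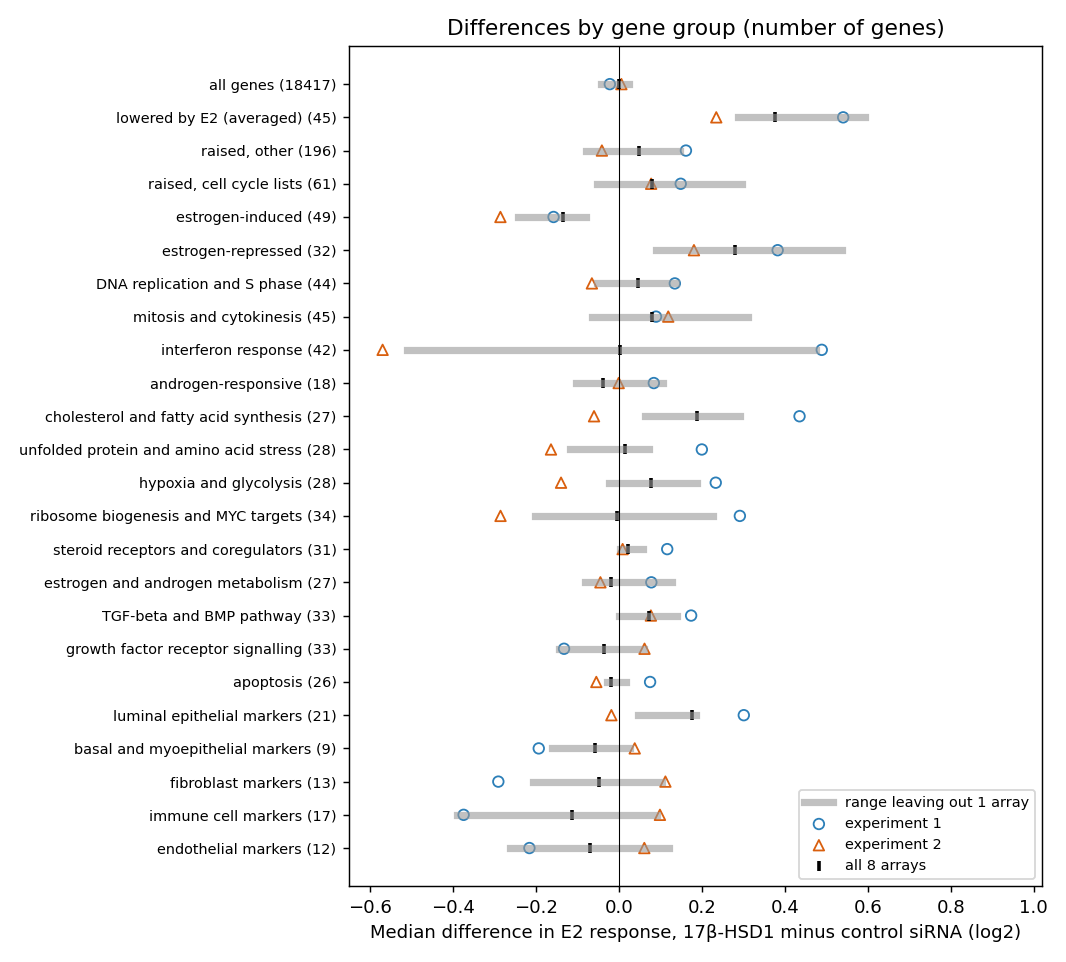
Median difference in E2 response (17β-HSD1 minus control siRNA, log2) for all genes, 3 classes of responding genes and 20 gene lists, with the number of genes in brackets. Black ticks use all 8 arrays, circles experiment 1, triangles experiment 2 and grey bars span the medians when 1 array is left out; the bar of the lowered genes runs from 0.29 to 0.59 and that of the interferon genes from -0.51 to 0.48.

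The genes with the smallest p of the difference were mostly not called in the averaged response. Opposite responses with the 2 siRNAs cancel in that average, so a missing call does not show that a gene did not respond. Among the 10 with a negative difference, SLC47A1 was the only gene called in it. OR1F2P, an olfactory receptor pseudogene, led with -1.69 ± 0.33. Its signals were 5.65 and 5.80 under vehicle against 6.57 and 6.49 under E2 with control siRNA, and 7.08 and 6.50, then 6.23 and 5.58, with 17β-HSD1 siRNA. E2 arrays lay above vehicle with control siRNA and below it with 17β-HSD1 siRNA. Such separation in opposite directions occurred in 238 genes (1.29%), and 5 others of these 10 showed it. Ranking by the p of the difference favours such genes, so their number among these 10 is no further support. Of the 109 genes with an unadjusted limma p below 0.05, 68 were among the 4605 dimmest genes. In these 68 the difference was negative for 48 and positive for 20. Among the 10 with a positive difference, TGFB2, AKAP6, NBEA, KLHL24 and ARID5B were lowered by E2, and 4 were small RNA genes, RNU5E-1, SNORD116-28, SNORD116-20 and SNORA22. NBEA, a scaffold of vesicle traffic, had a difference of 0.63 ± 0.22, and ARID5B, a chromatin cofactor, one of 0.56 ± 0.21.

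Over all genes the difference repeated poorly between experiments. Its sign was the same in both for 36.3% of genes. Across genes, which share arrays and are not replicates, the differences of experiments 1 and 2 correlated at -0.33. Their SD was 0.39 in experiment 1, which holds the array that stood apart, and 0.23 in experiment 2. Without the second vehicle replicate of the 17β-HSD1 siRNA, which leaves that array alone in its group, 2389 genes had an unadjusted limma p below 0.05, the smallest adjusted p was 0.383 and 0 genes were called.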

How the data were processed

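The deposited table of the authors holds log2 values for 33297 probe sets of Affymetrix Human Gene 1.0 ST arrays. The log2 scale was read from the values (2.42 to 15.2), and how the probe intensities were summarised and normalized is not stated in the labels or headers used.

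Gene symbols came from the array platform's annotation. Of these, 1754 carried several symbols and 12083 none, 21214 with at least 1 symbol were tested, and 769 genes had several probe sets, of which the brightest stood for the gene. limma 3.58.1 in R 4.3.3 fitted 1 coefficient per group over the 8 arrays (lmFit, eBayes, two-sided, 4 residual and 7.20 prior degrees of freedom). Calls used Benjamini-Hochberg adjustment over 21214 probe sets at 0.05. Errors are SEs of this fit and intervals are 95%. Precision is limited by the number of arrays, 2 per group. The fit was checked on simulated data whose noise was independent between arrays and equal in spread across groups. That check does not cover the unequal spreads and the correlated deviations of these arrays.

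Same-numbered arrays of 2 groups deviated together from their group means in 4 of 6 pairs of groups (correlations 0.31, 0.31, 0.42 and 0.44). The pairs of control siRNA, vehicle with both 17β-HSD1 siRNA groups gave -0.20 and 0.01. The pairing rests on the labels, which speak of 2 independent culture experiments.

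The 20 lists (569 of 631 entries measured), the members and the rule for named genes were chosen with earlier results of these data known. The rule names HSD17B1 and 12 canonical targets, of which 11 were measured. It also names the 10 genes per direction with the smallest p of the difference. Among called responders it names the 6 most reduced and 6 most enlarged with the same sign in both experiments, and the 6 closest among the 40 largest responses. Per list it names up to 4 members by p, and any called list member may be named. FSIP2, TXNIP, SOX4, CYP1A1, ANKRD30A and SCGB2A2 fall outside it and were chosen after their values were seen.

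Alternatives were a filter at the 20th percentile of signal, all probe sets, 1 probe set per gene, quantile normalization, a trended robust fit, array weights, the replicate block and leaving out each array. A crossed block and array weights with the block were added after seeing the data.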

Additional observations from a re-analysis of the deposited data

Results flagged for a closer look

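In the following genes the E2 arrays lay above all vehicle arrays with 1 siRNA and below them with the other, as in 238 of 18417 genes, and no difference passed limma's test after adjustment. The difference in E2 response was -1.69 for OR1F2P, -0.87 for LIPK, a lipase of the epidermis, and -0.80 for the antisense gene ADAD2-AS1. It was -0.71 for MOXD1, -0.67 for UGT2B4, a glucuronosyltransferase, and -0.67 for WBP2NL. The small nucleolar RNA gene SNORA22 had 0.82, and SMURF2, a ubiquitin ligase of TGF-beta signalling, had 0.32. The hydroxysteroid dehydrogenases AKR1C2 and AKR1C1 had 0.41 and -0.42. They are near-identical copies whose probes can share transcripts, so their values are uncertain. LIPK, MOXD1 and UGT2B4 were dim, with mean signals of 4.17, 4.71 and 4.36, while the other genes named here had 6.24 to 8.68.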

How the results depend on the processing

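The difference in E2 response and the test of kept responses had 0 calls under all 17 alternatives run. Counts of called responses moved. With control siRNA (16 genes) there were 26 without dim probe sets, 1 over all probe sets, 28 with 1 probe set per gene, 5 after quantile normalization, 35 with the trended robust fit and 177 with array weights. With 17β-HSD1 siRNA (52) there were 0 over all probe sets, 30 after quantile normalization and 0 with array weights, where 518 and 373 genes had a positive response at an unadjusted limma p below 0.05. The averaged response (302) had 86 over all probe sets. With the replicate block, which pairs arrays by experiment, the 3 counts were 121, 105 and 467, and no call of a difference changed. The crossed block gave 50 with control siRNA. Array weights with the block gave 554 with control siRNA and 471 for the averaged response. Leaving out 1 array gave 2 to 26, 0 to 74 and 113 to 285 calls. The cause was not tested. A group left with 1 array was assumed to vary like the others.

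The median difference of estrogen-induced genes was -0.29 in experiment 2 alone and ran from -0.24 to -0.079 with 1 array left out, that of estrogen-repressed genes from 0.089 to 0.54. For mitosis it was 0.12 in experiment 2 and ran from -0.065 to 0.31, and for raised genes from -0.068 to 0.18. For the lowered genes it ran from 0.29 to 0.59. For 15 other lists the spread was the SD of the medians of experiments 1 and 2, so lists whose experiments disagreed more had more room. Of 195 alternative values 184 moved by less than this spread, with a change of sign in 45. Each experiment alone was among the alternatives and lies within that spread almost by definition, so the count does not measure stability. Of 650 values for 50 genes 543 moved by less than the spread set for the gene, with a change of sign in 44.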
